A study of Danio rerio with 6 samples.

Results

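Whole zebrafish embryos injected with a standard control morpholino (coMO, 2 arrays) were set against embryos that were not injected (uninjected, 2 arrays). These are 4 of the 6 Affymetrix arrays of the series, taken by their labelled treatment. The other 2 arrays hold embryos injected with a morpholino against the estrogen receptor ERbeta2 (ERbeta2 MO). They enter through the filter on low signals, the model fits with their estimate of spread, and values set beside those of coMO. The coMO and ERbeta2 MO embryos received their oligomer at 15 uM no later than the stage of 4 cells, and the uninjected embryos received neither needle nor oligomer. All embryos came from eggs mixed across aquaria and were raised at the same temperature to 72 hours post fertilization (hpf). No genotype, strain or sham injection is given, so the effects of the needle, the injected fluid and the oligomer cannot be told apart. Each array is a pool of whole embryos, called a biological replicate in the labels, so a p-value reflects no more than how these pools vary.

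A morpholino is a synthetic antisense oligomer that binds a chosen RNA and blocks its translation or splicing. A standard control morpholino is designed to have no target in the embryo, and it stands for what injection and the chemistry of the oligomer do by themselves. Known side effects of morpholino injection in zebrafish include activation of the p53 pathway, interferon-stimulated genes and delayed development. At this age the larva has hatched or is about to, the exocrine pancreas, liver and intestine are taking on their adult functions, the yolk is being consumed, and neurons and lens fibers are still being formed.

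All 6 arrays had the same 2%-trimmed mean signal of 500.1, the scaling target of the MAS5 software that made the signals. Median signals were 209 and 213.5 in coMO, against 217.7 and 220.4 in uninjected embryos. Across 11626 tested probe sets, the SD of the log2 difference between the coMO arrays was 0.357, and between the uninjected arrays it was 0.301. The coMO arrays were not equally far from the uninjected ones. Replicate 1 of coMO differed by an SD of 0.576 and 0.513 from uninjected replicates 1 and 2, and replicate 2 of coMO differed by 0.403 and 0.34. Replicate 2 of coMO was therefore closer to replicate 2 of the uninjected embryos than to its own partner, and values of both coMO arrays are given throughout.

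Control probe sets read the 2 ends of 5 transcripts, and a high 3'/5' ratio means that less of the 5' end was measured. For acta1, a skeletal muscle actin, the ratio was 21.8 and 10.8 in coMO, against 3.54 and 4.26 in uninjected embryos. The signal at its 5' end was 1941.8 and 6015.9 in coMO, against 14889.9 and 13693.5 in uninjected embryos. The coMO and uninjected values did not overlap, and the log2 difference of the ratio was 1.98 with a 95% confidence interval of 0.411 to 3.55 from a model of 3 groups with 3 residual degrees of freedom. For phe, a bacterial transcript added as a labelling control, the ratio was 2.18 and 2.45 in coMO, against 1.34 and 1.6 in uninjected embryos, a log2 difference of 0.659 (0.235 to 1.08). The intervals of the other 3 transcripts included 0. For GAPDH the ratio was 1.95 and 1.23 in coMO, against 1.32 and 1.24 in uninjected embryos. The acta1 and phe ratios moved with the groups, while those of GAPDH, dap and lys overlapped between them. The part of the ratios in the gene results below was not tested beyond the covariate fits given there.

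**Figure D1:**
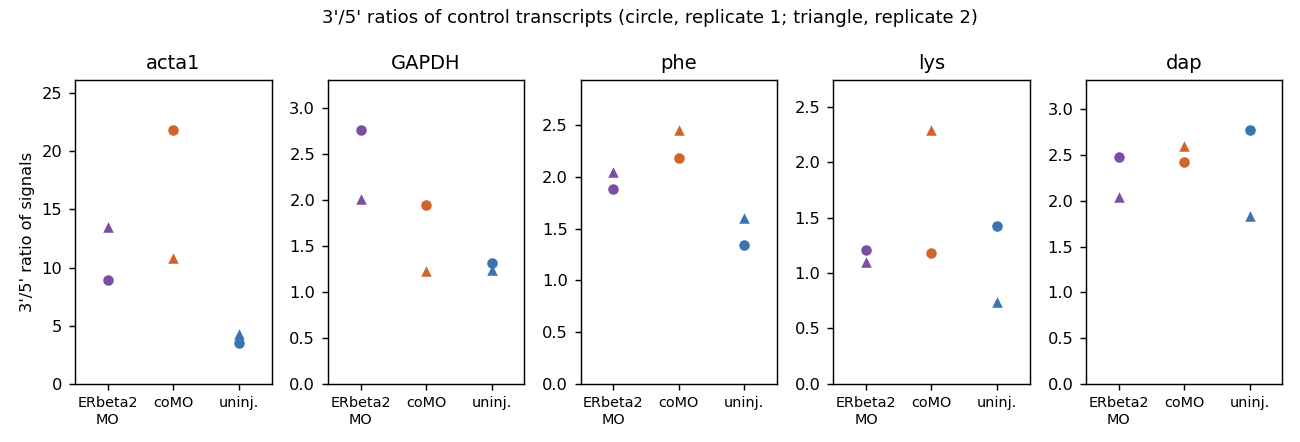
The 3'/5' signal ratios of 5 control transcripts (y axis, no unit) are plotted for each ERbeta2 MO, coMO and uninjected array, with circles for replicate 1 and triangles for replicate 2. The acta1 ratio is 21.8 and 10.8 in coMO, above 3.54 and 4.26 in uninjected embryos, while the dap ratio overlaps between the groups.

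No single probe set separated coMO from uninjected embryos past the threshold. In limma's fit over all 6 arrays, 0 of 11626 probe sets (0%) had a Benjamini-Hochberg adjusted p below 0.05, and the smallest adjusted p was 0.322. That fit pools its spread with the ERbeta2 MO arrays, whose log2 difference had an SD of 0.566, wider than within coMO or uninjected. Part of the spread behind these p-values and standard errors therefore comes from outside the comparison. At an unadjusted p below 0.05 there were 676 probe sets higher in coMO (5.81%) and 766 lower (6.59%). After median centring of the arrays these were 872 higher and 646 lower, so the split between directions depended on the scaling. A fit to only the 4 arrays compared called 2 probe sets, both lower in coMO. One was gnmt, a methyltransferase of liver methionine metabolism, with an adjusted p of 0.0266, and the other was si:dkey-193p11.2, with 0.0263. With 2 arrays a group, the smallest p an exact two-sided permutation test allows is 0.333.

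The sizes of the differences were nevertheless lopsided. With both coMO arrays on one side of both uninjected arrays and at least a 2-fold difference on the log2(signal + 32) scale, 225 probe sets were lower in coMO (1.94%) and 29 were higher (0.249%). This description was chosen after the test had called nothing. Without the condition on size, coMO lay above uninjected on all arrays for 3365 probe sets (28.9%) and below for 3034 (26.1%). The median difference over all probe sets was 0.02. Of the 225 lower probe sets, 207 were farther from the uninjected mean on replicate 1 of coMO than on replicate 2, and so were 25 of the 29 higher ones. Leaving out replicate 1 of coMO left 127 lower and 17 higher, and leaving out replicate 2 of coMO gave 509 and 151. Leaving out uninjected replicate 2 gave 299 lower and 101 higher, and the counts without uninjected replicate 1 were 212 and 35.

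**Figure D2:**
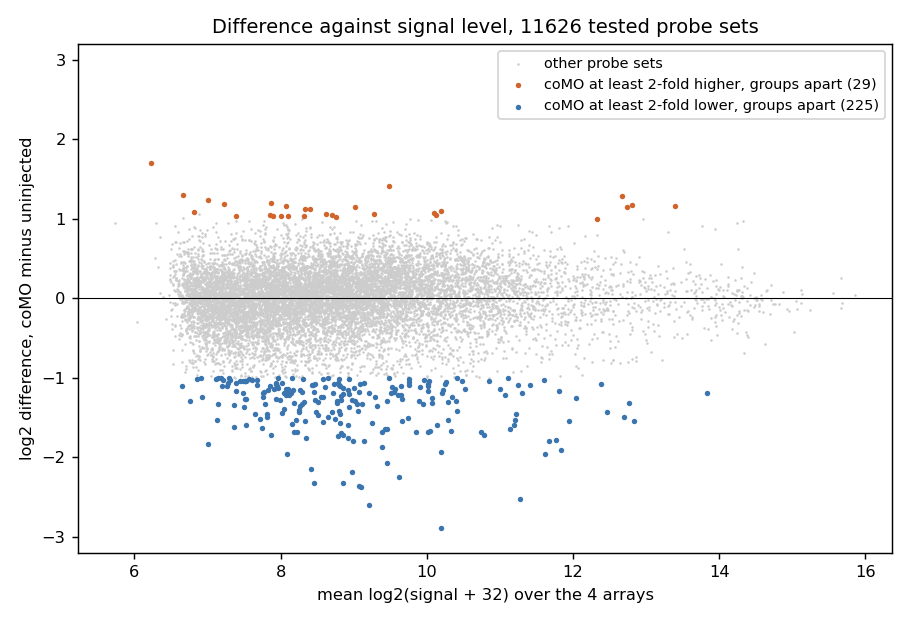
Each of 11626 probe sets is plotted by its mean log2(signal + 32) over the 4 arrays (x axis) and its log2 difference, coMO minus uninjected (y axis). The 29 probe sets at least 2-fold higher with groups apart are orange, the 225 lower ones are blue and reach -2.89, and both are spread over the signal range.

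The 225 lower probe sets with at least a 2-fold difference stood for 183 named genes, of which 66 were in one of 30 gene lists. Of these lists of organ, stress and housekeeping genes, the lowest medians were those of the exocrine pancreas (-1.67), liver (-0.80), intestine (-0.75), pigment cells (-0.49) and epidermis and fin fold (-0.48). The highest were those of the lens (0.71) and of neurogenesis and early neurons (0.34). The list counts below are to be read beside the shares over all probe sets. These were 28.9% higher and 26.1% lower on both coMO arrays, and 0.249% higher and 1.94% lower by at least 2-fold. In whole embryos, fewer cells of a type and less RNA per cell cannot be told apart. When the log2 acta1 ratio was added to the model as a covariate, the median stayed below 0 for exocrine pancreas (-0.86) and intestine (-0.22) and above 0 for lens (0.33). It turned to 0.46 for liver, 0.27 for pigment cells, 1.06 for epidermis and -0.24 for neurogenesis. That covariate separates the 2 groups, so its fit leaves little of the group difference to estimate. With the GAPDH ratio as the covariate, all 7 medians kept their sign, at -1.29, -0.69, -0.6, -0.62, -0.54, 0.72 and 0.35 in the order named.

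**Figure D3:**
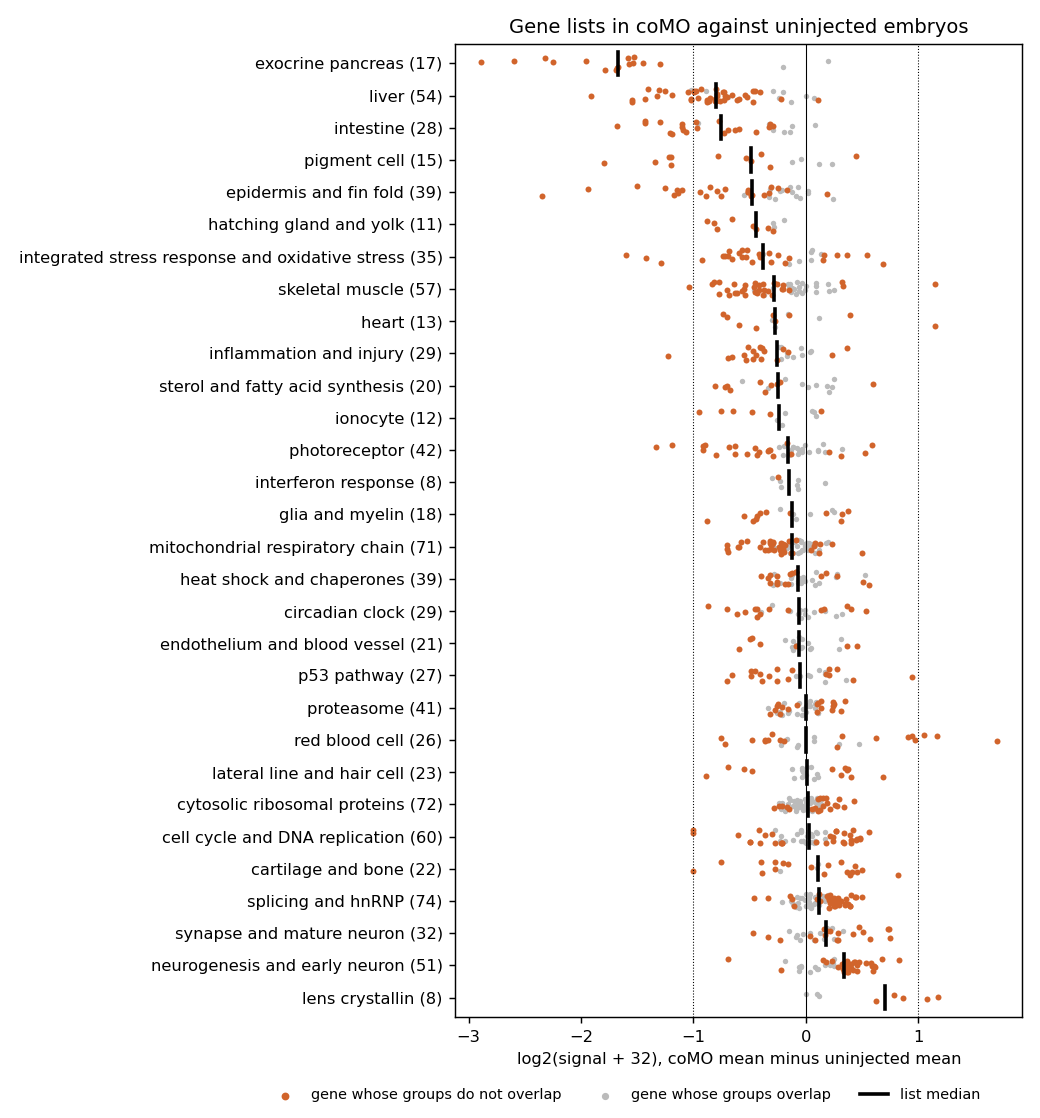
Each point is 1 gene, placed by its log2 difference, coMO mean minus uninjected mean (x axis), in the 30 gene lists (y axis, number of genes tested in brackets); orange points are genes whose groups do not overlap and black bars are list medians. The exocrine pancreas lies lowest with a median of -1.67 and the lens highest with 0.71.

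The digestive enzymes of the exocrine pancreas, made by acinar cells, showed the largest differences. Of 17 tested members, 15 were lower on both coMO arrays than on both uninjected arrays, 0 were higher, and all 15 were at least 2-fold lower. The pancreatic elastase ela2 had signals of 216 and 717 in coMO, against 6313 and 1577 in uninjected embryos, a log2 difference of -2.89 ± 0.68 (SE). The amylase amy2a had 168 and 256 in coMO, against 2518 and 801 in uninjected embryos (-2.60 ± 0.53). The chymotrypsinogen ctrb.2 had 152 and 200 in coMO, against 2107 and 466 in uninjected embryos (-2.32 ± 0.57). The groups were apart for each of these, but the uninjected arrays also differed widely from each other, with replicate 1 the higher.

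The same order of arrays held for the proteases ela3l (209 and 503 in coMO, against 3369 and 825 in uninjected embryos) and prss1, a trypsinogen (1911 and 2700 in coMO, against 9474 and 4679 in uninjected embryos). The carboxypeptidase cpb1 had 395 and 794 in coMO, against 2426 and 1419 in uninjected embryos. Over the list, the median of coMO replicates 1 and 2 against the uninjected mean was -2.07 and -1.29, and the median of the coMO mean against uninjected replicates 1 and 2 was -2.15 and -1.09. The 2 members that overlapped between groups were ptf1a, the transcription factor that specifies acinar cells, with 116 and 125 in coMO against 79.2 and 126 in uninjected embryos, and amy2al1. The signals of ptf1a are low on an array without detection calls, and amy2al1, a relative of amy2a, overlapped as well. In ERbeta2 MO the list median against the same uninjected arrays was -3.69.

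Intestinal genes were low as well. Of 28 tested members, 21 were lower on both coMO arrays, 0 were higher and 10 were at least 2-fold lower. The lists share some members, so their counts are not separate. Among these 10, cel.1 is also in the exocrine pancreas list, and apoa4b.1 and apoa1a are also in the liver list. The chitinase chia.2 had 300 and 391 in coMO, against 1767 and 769 in uninjected embryos (-1.68 ± 0.44), and its relative chia.1 had 147 and 231 in coMO, against 980 and 308 in uninjected embryos (-1.43 ± 0.49). Villin, vil1, which bundles actin in the microvilli of enterocytes, had 266 and 278 in coMO, against 729 and 522 in uninjected embryos (-1.1 ± 0.33). The fatty acid carrier fabp2 had 2191 and 2959 in coMO, against 6707 and 3774 in uninjected embryos (-0.97 ± 0.29). The groups were apart for these genes, and the uninjected replicate 1 was again the higher one. Angiotensin-converting enzyme, ace, and mttp, which loads lipid onto lipoproteins, overlapped between the groups.

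In the liver list, 44 of 54 members were lower on both coMO arrays, 1 was higher and 12 were at least 2-fold lower. The apolipoprotein apoa4b.2 had 1056 and 3214 in coMO, against 7136 and 6952 in uninjected embryos (-1.91 ± 0.49). Here the uninjected arrays were close to each other and the coMO arrays were not. The same was true of apoa1a, the main protein of high-density lipoprotein, with 5679 and 16350 in coMO against 20370 and 23870 in uninjected embryos (-1.19 ± 0.53). The gluconeogenic enzyme pck1 had 125 and 287 in coMO, against 918 and 422 in uninjected embryos (-1.55 ± 0.45). In contrast, gnmt was even within both groups, with 442 and 437 in coMO against 1386 and 1304 in uninjected embryos (-1.55 ± 0.37). The median of the liver list was -1.06 for coMO replicate 1 and -0.45 for replicate 2. The member that was higher was igf2b, a growth factor, with 578 and 546 in coMO against 529 and 509 in uninjected embryos. Probe sets of apoa4b.1, apoa4b.2, ctrb.1, ctrb.2 and cel.1 share a cluster name with those of other genes, so these identities are less certain.

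**Figure D4:**
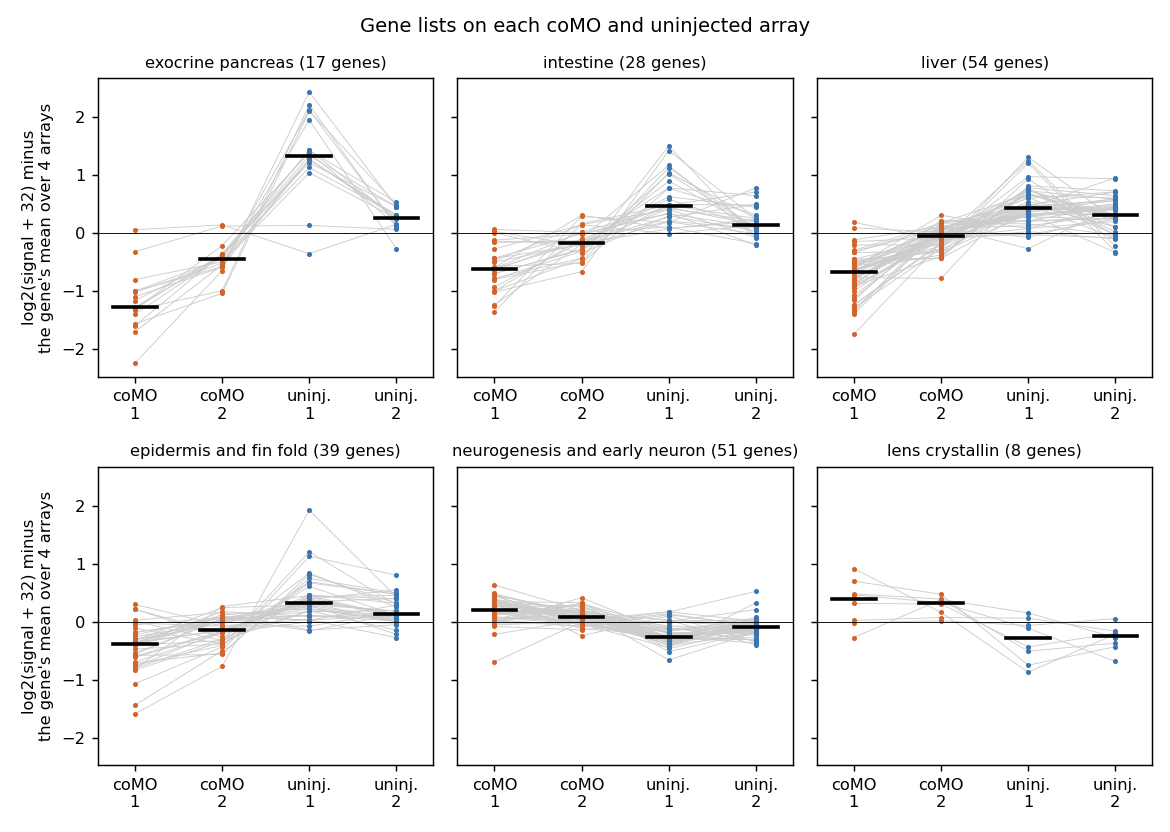
Each grey line is 1 gene and each point its log2(signal + 32) on 1 array minus its mean over the 4 arrays (y axis), for 6 lists on the 2 coMO and 2 uninjected arrays (x axis); black bars are medians. In exocrine pancreas, intestine, liver and epidermis both coMO medians lie below both uninjected medians, with coMO replicate 1 lowest, and in the neurogenesis and lens lists they lie above.

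Surface tissues and pigment cells were low with more uneven members. In the epidermis and fin fold list 24 of 39 members were lower on both coMO arrays, 1 was higher and 8 were at least 2-fold lower. The largest differences were those of zgc:111983 (147 and 284 in coMO, against 2011 and 692 in uninjected embryos, -2.35 ± 0.99) and lye (398 and 794 in coMO, against 2522 and 2006 in uninjected embryos, -1.94 ± 0.93). Their standard errors are wide because the ERbeta2 MO arrays, which share the fit, differed widely from each other in these genes, with lye at 3261 and 239. The keratin krt5 and the fin fold actinodins and1, and2 and and3 overlapped between coMO and uninjected embryos. Outside this list, the keratin krt1-19d had 129 and 142 in coMO, against 601 and 419 in uninjected embryos (-1.68 ± 0.29).

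Among 15 pigment cell genes, 10 were lower on both coMO arrays, 1 was higher and 5 were at least 2-fold lower. The melanin enzyme dct had 237 and 246 in coMO, against 1233 and 682 in uninjected embryos (-1.80 ± 0.71). The melanosome protein gene pmelb had 64 and 79 in coMO, against 244 and 216 in uninjected embryos (-1.34 ± 0.44). The neural crest factor sox10, which specifies pigment cell precursors and also marks glia, had 834 and 497 in coMO, against 525 and 567 in uninjected embryos. Thus dct and pmelb were lower while sox10 overlapped between the groups. In the liver list the transcription factor gene hnf4a was lower, with 88.8 and 147 in coMO against 208 and 225 in uninjected embryos (-0.76 ± 0.25). Of the regulators named here, ptf1a and sox10 thus overlapped between the groups while hnf4a was lower. They do not stand for the other regulators in the lists.

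In ionocytes, the salt-transporting cells of the skin, 5 of 12 genes were lower on both coMO arrays and 1 was higher, with carbonic anhydrase ca2 at 2267 and 2369 in coMO against 4010 and 3804 in uninjected embryos (-0.75 ± 0.20). The median of the list was -0.24. In the list of hatching gland and yolk genes, 8 of 11 were lower, 0 were higher and the median was -0.44. No hatching enzyme gene was among its tested members. Of these, apoeb, apoc1 and apobb.1 are also in the liver list, and agr2, mttp and apobb.1 in the intestine list. The largest difference of the list was that of apoeb, an apolipoprotein of the yolk syncytial layer and of glia. It had 2462 and 3969 in coMO against 6199 and 5357 in uninjected embryos (-0.88 ± 0.31). The apoeb probe set shares a cluster name with another gene, so its identity is less certain.

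Among the 12 genes with the smallest unadjusted p on the low side were 4 with roles in mitochondria or muscle metabolism, named here after their values were seen. Pyruvate dehydrogenase kinase pdk4, which restrains the entry of glucose carbon into mitochondrial oxidation, had 114 and 151 in coMO, against 370 and 360 in uninjected embryos (-1.28 ± 0.21, unadjusted p = 0.000288 and adjusted p = 0.322 in limma). The uncoupling protein ucp3 had 212 and 232 in coMO, against 1119 and 577 in uninjected embryos (-1.72 ± 0.30). The muscle adenylosuccinate synthase adss1 had 187 and 389 in coMO, against 1128 and 925 in uninjected embryos (-1.80 ± 0.31). The mitochondrial carrier slc25a55b had 152 and 171 in coMO, against 382 and 411 in uninjected embryos (-1.15 ± 0.20). All 4 were lower on both coMO arrays, by a gap wider than the spread within either group on the log2(signal + 32) scale. Groups apart and a small p were conditions of the choice, so this adds no support.

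The respiratory chain leaned lower by small differences. Of 71 genes, 31 were lower on both coMO arrays (43.7%, against 26.1% over all probe sets). Higher were 7 (9.86%, against 28.9%), 0 were at least 2-fold apart and the median was -0.12. The succinate dehydrogenase subunit sdha had 2337 and 2891 in coMO, against 4519 and 3986 in uninjected embryos (-0.70 ± 0.19). The median of the list against the uninjected mean was -0.24 for coMO replicate 1 and -0.02 for replicate 2, so the second array hardly differed.

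In skeletal muscle, 31 of 57 genes were lower on both coMO arrays, 3 were higher and the median was -0.28. Myoglobin, mb, had 756 and 645 in coMO, against 2167 and 989 in uninjected embryos (-1.04 ± 0.34). The giant sarcomere protein gene ttn.2 went the other way, with 9867 and 10340 in coMO against 2938 and 7026 in uninjected embryos (1.15 ± 0.41). A second ttn.2 probe set had 10670 and 9720 in coMO, against 3333 and 5196 in uninjected embryos. In the heart list 7 of 13 were lower, 2 were higher and the median was -0.27, with the atrial and ventricular light chain myl7 at 438 and 511 in coMO against 848 and 778 in uninjected embryos (-0.74 ± 0.22). The acta1 ratio is read from a muscle transcript, and with it as the covariate the skeletal muscle median was 0.77.

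The p53 pathway, the best known off-target route of morpholinos, lay close to the uninjected level. Of 27 tested genes, each read by its brightest probe set, 12 were lower on both coMO arrays and 6 were higher. By these probe sets 0 were at least 2-fold apart, and the median was -0.05. For perp the brightest probe set had 2355 and 2728 in coMO, against 4345 and 3935 in uninjected embryos (-0.7 ± 0.3). Another perp probe set was lower still, with a ratio of coMO over uninjected of 0.263 in the authors' deposited table. The p53 target mdm2, which encodes its inhibitor, had 237 and 299 in coMO, against 369 and 407 in uninjected embryos (-0.49 ± 0.31). Cyclin G1, ccng1, had 4891 and 5601 in coMO, against 6206 and 6300 in uninjected embryos (-0.26 ± 0.18). The ribosomal protein rps27l, also a p53 target, had 856 and 813 in coMO, against 673 and 689 in uninjected embryos (0.28 ± 0.32). By the brightest probe sets, the largest difference was that of bmb, with 36.4 and 48.6 in coMO against 5.45 and 7.31 in uninjected embryos (0.95 ± 0.30). Known from zebrafish zygotes for the fusion of nuclei, bmb is in the list although that role is not one of p53, and its signals are low on an array without detection calls.

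On the ERbeta2 MO arrays some of these genes stood elsewhere. Ccng1 had 16280 and 14490 in ERbeta2 MO embryos, against 4891 and 5601 in coMO (log2 difference 1.55, adjusted p = 0.0139 in limma). Rps27l had 6490 and 3052 in ERbeta2 MO embryos, against 856 and 813 in coMO (2.37, adjusted p = 0.018 in limma). These 2 genes differed between the 2 injected groups past the threshold. Mdm2 did not, with 772 and 382 in ERbeta2 MO embryos, against 237 and 299 in coMO (0.95, adjusted p = 0.151 in limma). Bmb had 513 and 272 in ERbeta2 MO embryos, against 36.4 and 48.6 in coMO. It passed the filter on low signals through its ERbeta2 MO values and its coMO signals may be background, so no test of it is given.

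In the inflammation and injury list, 16 of 29 genes were lower on both coMO arrays, 2 were higher and the median was -0.26. The matrix protease mmp9, a marker of wounding, had 89.2 and 82.1 in coMO, against 116 and 146 in uninjected embryos (-0.47 ± 0.46), and 1276 and 381 in ERbeta2 MO. The stress factor atf3 had 216 and 221 in coMO, against 260 and 346 in uninjected embryos (-0.41 ± 0.31), and 1546 and 783 in ERbeta2 MO. The ubiquitin-like isg15, induced by interferon, had 18.2 and 36.8 in coMO, against 34.9 and 46.5 in uninjected embryos, and 242 and 197 in ERbeta2 MO. The differences between ERbeta2 MO and coMO were 2.64 for mmp9 and 2.18 for atf3, with adjusted p of 0.037 and 0.0215 in limma. The coMO and uninjected signals of isg15 may be background, and it passed the filter through its ERbeta2 MO values, so no test of it is given. In the interferon list 1 of 8 genes was lower on both coMO arrays and 0 were higher, with a median of -0.15.

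The immediate early gene fosab, which is induced within minutes by handling or injury, was lower in coMO by all 4 of its probe sets, which ranged from -1.0 to -1.35. The brightest had 434 and 328 in coMO, against 769 and 1126 in uninjected embryos (-1.23 ± 0.37). The inflammatory regulators cebpb (299 and 333 in coMO, against 506 and 550 in uninjected embryos) and cebpd (1140 and 1317 in coMO, against 2216 and 1735 in uninjected embryos) also lay lower on both coMO arrays.

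In the list of the integrated stress response and oxidative stress, 22 of 35 genes were lower on both coMO arrays, 6 were higher, 3 were at least 2-fold lower and the median was -0.38. The ferritin-like fthl28, whose probe set shares a cluster name with another gene, had the smallest unadjusted p of all, with 74.4 and 73.1 in coMO against 249 and 331 in uninjected embryos (-1.60 ± 0.22, unadjusted p = 7.38e-05 and adjusted p = 0.322 in limma). The lipid peroxide reductase gpx4a had 576 and 1100 in coMO, against 2272 and 2114 in uninjected embryos (-1.42 ± 0.38). The quinone reductase nqo1, a target of the antioxidant factor Nrf2, had 529 and 631 in coMO, against 1795 and 1187 in uninjected embryos (-1.29 ± 0.40). The gene of that factor, nfe2l2a, had 286 and 393 in coMO, against 625 and 542 in uninjected embryos by its brightest probe set (-0.74 ± 0.37), and a second probe set had 106 and 161 in coMO, against 471 and 507 in uninjected embryos (-1.67 ± 0.32). The 3 genes at least 2-fold lower, fthl28, gpx4a and nqo1, have known roles in iron storage or against oxidative damage. With the acta1 ratio as the covariate, gpx4a stood at 0.69, nqo1 at 0.29 and nfe2l2a at 0.87, opposite in sign to the main fit. The ratio separates coMO from uninjected arrays, so the fit leaves little of the group difference to estimate and does not settle their direction.

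The listed heat shock and chaperone genes were near the uninjected level, with 13 of 39 lower on both coMO arrays, 5 higher, 0 at least 2-fold apart and a median of -0.07. The heat shock cognate hsc70 is in no list and was lower on both coMO arrays, with its values given at the end. The inducible cytosolic chaperone hsp90aa1.2 had 2419 and 2397 in coMO, against 1433 and 1828 in uninjected embryos (0.56 ± 0.25), while a second probe set overlapped (1243 and 1677 in coMO, against 1194 and 1673 in uninjected embryos).

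The lens was the list that stood highest in coMO. Of 8 tested genes, 5 were higher on both coMO arrays, 0 were lower and 2 were at least 2-fold higher. The gamma crystallin crygmxl2, a structural protein of lens fibers, had 11640 and 9964 in coMO, against 4244 and 5308 in uninjected embryos (1.18 ± 0.21). The beta crystallin cryba4 had 22050 and 20710 in coMO, against 11090 and 12230 in uninjected embryos (0.87 ± 0.19), and crybb1 had 24370 and 24190 in coMO, against 14480 and 17080 in uninjected embryos (0.63 ± 0.20). The lens filament protein gene bfsp2 had 2044 and 1201 in coMO, against 571 and 917 in uninjected embryos (1.08 ± 0.31). The alpha crystallin cryaa overlapped, with 727 and 754 in coMO against 748 and 635 in uninjected embryos. The 2 coMO arrays were alike here, with list medians of 0.75 and 0.66 against the uninjected mean.

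Of 26 red blood cell genes, 9 were higher on both coMO arrays (34.6%, against 28.9% over all probe sets), 9 were lower (34.6%, against 26.1%), and the median was 0. Of these genes, 3 (alas2, nt5c2l1 and hbbe3) were at least 2-fold higher and 0 were at least 2-fold lower. The embryonic alpha globin hbae3 had 26230 and 27730 in coMO, against 11620 and 16700 in uninjected embryos (0.95 ± 0.24). The embryonic beta globin hbbe2 had 6475 and 4321 in coMO, against 2491 and 3169 in uninjected embryos (0.91 ± 0.24). A further embryonic beta globin, hbbe3, had 213 and 42.2 in coMO, against 10.6 and 8.55 in uninjected embryos (1.70 ± 0.48), and 3716 and 2678 in ERbeta2 MO. The coMO arrays differed widely from each other in hbbe3, and the uninjected values lie in the range where signal and background are not separated. It passed the filter on low signals through its ERbeta2 MO values, so it adds no support to the count and no test of it is given.

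The erythroid enzyme alas2, which starts heme synthesis, had 392 and 348 in coMO, against 135 and 160 in uninjected embryos (1.17 ± 0.24). The nucleotidase nt5c2l1 had 302 and 298 in coMO, against 127 and 130 in uninjected embryos (1.05 ± 0.20). Later steps of heme synthesis did not share that direction: uros had 99.1 and 147 in coMO against 159 and 170 in uninjected embryos, and urod had 201 and 292 in coMO against 294 and 349 in uninjected embryos. The red cell antioxidant prdx2 was also lower on both coMO arrays (-0.48 ± 0.21).

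Genes of young neurons were moderately higher. Of 51 tested neurogenesis genes, 34 were higher on both coMO arrays and 2 were lower, but 0 were 2-fold apart and the median was 0.34. The RNA-binding protein gene elavl3, a marker of newly born neurons, had 4282 and 3159 in coMO, against 1730 and 2424 in uninjected embryos (0.83 ± 0.30). Its probe set shares a cluster name with another gene, and of its other 3 probe sets 1 was higher on both coMO arrays and 2 overlapped between the groups. The eye and brain regulator pax6b had 584 and 577 in coMO, against 306 and 400 in uninjected embryos (0.68 ± 0.25). The zinc finger factor insm1b, expressed in cells leaving the cycle to become neurons, had 1823 and 1476 in coMO, against 1100 and 1016 in uninjected embryos (0.62 ± 0.19). The splicing regulator nova2 had 222 and 378 in coMO, against 429 and 559 in uninjected embryos (-0.69 ± 0.30), while another probe set of it was higher on both coMO arrays (0.48 ± 0.25).

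The list medians of coMO replicates 1 and 2 against the uninjected mean were 0.37 and 0.26 for neurogenesis. Genes of synapses and mature neurons had 16 of 32 higher, 3 lower and a median of 0.18, led by the neuronal sodium pump gene atp1a3a with 2060 and 1594 in coMO against 1074 and 1062 in uninjected embryos (0.75 ± 0.26). In glia and myelin 4 of 18 were higher, 8 were lower and the median was -0.12, with the myelin protein gene mbpb at 765 and 920 in coMO against 1232 and 1113 in uninjected embryos (-0.47 ± 0.20). With the acta1 ratio as the covariate the median of the synapse list was -0.7, so both neuronal lists took the opposite sign in that fit. The ratio separates coMO from uninjected arrays, so the fit leaves little of the group difference to estimate and does not settle their direction.

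Of 42 tested photoreceptor genes, 19 were lower on both coMO arrays, 4 were higher, 2 were at least 2-fold lower and the median was -0.16. Peripherin prph2a, which shapes the outer segment disc, had 220 and 451 in coMO, against 918 and 775 in uninjected embryos (-1.33 ± 0.41), and prph2b had 255 and 508 in coMO, against 922 and 806 in uninjected embryos (-1.19 ± 0.43). The cone transducin gnat2 had 2783 and 4869 in coMO, against 6307 and 6567 in uninjected embryos (-0.80 ± 0.61). The green opsin opn1mw1 overlapped, with 8605 and 12370 in coMO against 13200 and 11230 in uninjected embryos. Both stood far from ERbeta2 MO, where gnat2 had 58.2 and 390 and opn1mw1 had 198 and 1532. The photoreceptor regulator crx had 1775 and 1466 in coMO, against 1276 and 1305 in uninjected embryos (0.31 ± 0.25).

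The lateral line, the organ named in the title of the series, gave a median of 0.01. Of 23 genes, 7 were higher on both coMO arrays (30.4%, near the 28.9% over all probe sets). Lower were 4 (17.4%, against 26.1%). The placode regulator eya1 had 692 and 426 in coMO, against 303 and 348 in uninjected embryos (0.69 ± 0.25). The hair cell calcium buffer pvalb8 had 1357 and 1435 in coMO, against 2505 and 2051 in uninjected embryos (-0.69 ± 0.19). The estrogen receptor genes lay below the filter on low signals. Signals of esr1 were 18 and 20.2 in coMO, against 30 and 21.9 in uninjected embryos, and those of esr2b were 61.2 and 53.5 in coMO, against 57.2 and 55.3 in uninjected embryos. Those of esr2a were 62.1 and 54.9 in coMO, against 51.8 and 89.6 in uninjected embryos.

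Of 60 cell cycle and replication genes, 19 were higher on both coMO arrays (31.7%), 13 were lower (21.7%) and the median was 0.03. These shares are near those of 28.9% and 26.1% over all probe sets. By at least 2-fold, 0 were higher and 1 was lower. That gene was top2a, with 78.1 and 338 in coMO, against 345 and 401 in uninjected embryos (-1.0 ± 0.48). The helicase subunit mcm6 had 68.1 and 160 in coMO, against 232 and 258 in uninjected embryos (-1.0 ± 0.37), while its partner in the same complex mcm7 had 1724 and 1680 in coMO, against 1121 and 1309 in uninjected embryos (0.48 ± 0.20). Cartilage and bone genes had 11 of 22 higher, 8 lower and a median of 0.11. The cartilage collagen col11a2 had 1119 and 1227 in coMO, against 656 and 639 in uninjected embryos (0.82 ± 0.20), and hapln1a, which links hyaluronan to proteoglycan, had 696 and 1239 in coMO, against 1787 and 2010 in uninjected embryos (-1.0 ± 0.30).

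The counts of the remaining lists were as follows, beside 28.9% higher and 26.1% lower over all probe sets. Splicing and hnRNP genes had 31 of 74 higher on both coMO arrays, 5 lower and a median of 0.12. Cytosolic ribosomal protein genes had 16 of 72 higher, 5 lower and a median of 0.02, and proteasome genes had 11 of 41 higher, 8 lower and a median of 0. In the endothelium 2 of 21 were higher, 5 were lower and the median was -0.06. In the circadian clock 5 of 29 were higher, 10 were lower and the median was -0.06, with the repressor gene nr1d2a at 186 and 245 in coMO against 482 and 361 in uninjected embryos (-0.87 ± 0.33). Sterol and fatty acid synthesis had 1 of 20 higher, 9 lower and a median of -0.25, with the sterol oxidase msmo1 at 312 and 304 in coMO against 558 and 488 in uninjected embryos (-0.70 ± 0.20).

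Several genes outside the lists were among the 12 smallest unadjusted p in either direction. On the high side, the chromatin protein gene kmt2e had 1390 and 1210 in coMO, against 626 and 648 in uninjected embryos (0.99 ± 0.21). The zinc finger gene rlf had 464 and 428 in coMO, against 164 and 214 in uninjected embryos (1.12 ± 0.21), and zbtb16a had 267 and 279 in coMO, against 130 and 118 in uninjected embryos (0.97 ± 0.21). The receptor phosphatase ptprsa had 2103 and 1337 in coMO, against 718 and 819 in uninjected embryos (1.1 ± 0.25). The activin receptor acvr2ba had 1954 and 1583 in coMO, against 895 and 950 in uninjected embryos (0.91 ± 0.19), but another of its probe sets overlapped between the groups at -0.40 ± 0.30. On the low side, the gap junction gene gjb8 had 41.1 and 60.6 in coMO, against 188 and 223 in uninjected embryos (-1.53 ± 0.24). The phospholipase relative pla2g12b had 218 and 319 in coMO, against 668 and 661 in uninjected embryos (-1.23 ± 0.23), and zgc:66156 had 113 and 352 in coMO, against 937 and 1144 in uninjected embryos (-2.18 ± 0.42). The choice of these genes required groups apart, which the second acvr2ba probe set did not have.

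The authors' deposited table for the same pair lists 541 probe sets, 124 with a ratio of coMO over uninjected of at least 2 and 417 with a ratio of at most 0.5; no p-values of that table were used. Its direction was settled by the value table, with which all 541 signs match. The highest ratio in the authors' deposited table was 5.96 (hbbe3) and the lowest was 0.0552 (ctrb.2). Of its probe sets, 467 were tested here and 74 lay below the filter on low signals. Of the 467, 452 had groups that do not overlap in the listed direction and 229 were also at least 2-fold apart on the log2(signal + 32) scale. Over all tested probe sets, coMO lay above uninjected on all arrays for 28.9% and below for 26.1%. The listed probe sets were selected by their ratio in the same comparison, so this match was largely fixed in advance and is no independent support. The same files gave 25 further probe sets at least 2-fold apart that the authors' deposited table does not list.

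The difference between the 2 coMO arrays resembled, across genes, a difference between arrays that are not among them. The log2 difference of coMO replicate 1 minus replicate 2 correlated with that of ERbeta2 MO minus uninjected at Pearson's r = 0.546 and Spearman's rho = 0.519 over 11626 probe sets. The 2 differences share no array, but genes are not independent replicates and probe sets share base composition and signal level, so no p is given. Of 107 probe sets at least 2-fold lower on coMO replicate 1 than on replicate 2, 106 had an ERbeta2 MO mean below the uninjected mean, with a median difference of -1.76. Of 27 at least 2-fold higher, 25 had an ERbeta2 MO mean above it, with a median of 0.56. Over all tested probe sets 5601 were below and 6025 above. The coMO pool with the larger distance from uninjected embryos therefore differed from its partner in the direction in which ERbeta2 MO differed from uninjected embryos. The 3'/5' ratios of acta1 and GAPDH ran the same way, while those of dap, lys and phe were lower on coMO replicate 1 than on replicate 2. The acta1 ratio was 21.8 and 10.8 in coMO, 8.92 and 13.5 in ERbeta2 MO, and 3.54 and 4.26 in uninjected embryos. The GAPDH ratio was 1.95 and 1.23 in coMO, 2.76 and 2.01 in ERbeta2 MO, and 1.32 and 1.24 in uninjected embryos. The part of these ratios in the correlation was not tested.

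**Figure D5:**
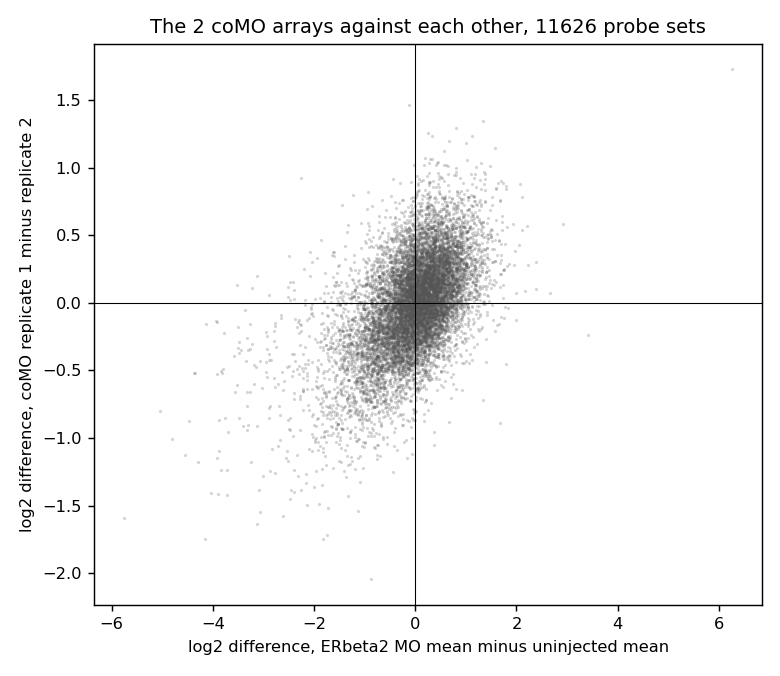
Each point is 1 of 11626 probe sets, placed by its log2 difference of ERbeta2 MO mean minus uninjected mean (x axis) and of coMO replicate 1 minus coMO replicate 2 (y axis), both on log2(signal + 32). The points run from lower left to upper right with r = 0.546, and the probe set at the far upper right is hbbe3.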

How the data were processed

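Biotin-labelled total RNA of whole embryos was read on Affymetrix arrays, per the labels' protocols. The authors deposited 1 linear signal intensity per probe set and array, made with MAS5 per the submitters' processing notes, and tables of ratios (fold) between groups whose values, in the table used, all reach 2 or lie at or under 0.5. How replicates were combined in these ratios, and the MAS5 settings, are not given in the sources used here. The deposited table has no detection calls, so a low signal may be background. Precision is limited by how few arrays there are.

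Of 15617 probe sets, 115 controls were left out. Of the other 15502, 10795 had a single symbol in the annotation of the platform, 4572 had none and 135 with several were not named. Symbols were matched by gene number to the gene table of assembly GRCz12tu (10711 found, 1 changed). A gene is given by its probe set of highest mean over the 4 arrays. Array gene models name no build used here, so no positions are given.

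Deposited intensities were taken as log2(signal + 32), which understates differences of low genes. Probe sets in the lowest 25% by mean over all 6 arrays, ERbeta2 MO included, were left out, leaving 11626. The test was limma 3.58.1 (R 4.3.3; lmFit, eBayes with an intensity trend) with all 6 arrays in a model of 3 groups, 3 residual and 5.31 prior degrees of freedom, two-sided, with Benjamini-Hochberg adjustment over all tested probe sets at 0.05. The code was tested on simulated data. Where a gene is named without a p, its adjusted p was 0.322 or more.

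The 30 gene lists (1705 entries, 1097 on the array, 994 tested) and the named genes were chosen with earlier results of these data known, and list counts are descriptions. Since nothing was called, the named genes are the 12 smallest p in each direction with groups apart, up to 3 members of each list with the largest differences and groups apart, and a set of fixed genes, 115 in all. Other list members are named in the text as examples chosen after their values were seen. Alternatives were other pseudocounts, filters, normalizations and priors, the replicate block, each array left out, and control ratios as covariates.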

Additional observations from a re-analysis of the deposited data

How the results depend on the processing

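The count of 0 called probe sets held under every alternative except the fit to only the 4 arrays compared, which called 2. At an unadjusted p below 0.05 the total of 1442 probe sets was 2537 with only those 4 arrays, 871 with the GAPDH ratio and 131 with the acta1 ratio as covariate, and 338 to 1543 with 1 array left out. With the replicate number as a block (replicate block) 0 were called, and 539 higher and 785 lower probe sets had an unadjusted p below 0.05. The block moved no other call. The deviations of same-numbered coMO and uninjected arrays correlated at -0.0959, which cannot decide whether the numbers pair the samples, and the labels do not say. The 29 higher and 225 lower probe sets at least 2-fold apart became 85 and 340 with a pseudocount of 1, 8 and 138 with a pseudocount of 100, and 534 and 894 at 1.5-fold. They became 46 and 192 after median centring, and 81 and 182 with the acta1 covariate. Leaving out the lowest 50% of probe sets left 24 and 143. With 1 array left out the ranges were 17 to 151 higher and 127 to 509 lower. The share of higher probe sets at an unadjusted p below 0.05 was 46.9%, and 57.4% after median centring. The median over all probe sets, 0.021, was 0.01 without a filter, 0.058 without the lowest 50%, 0.067 after median centring, 0.044 after quantile normalization, -0.02 with the acta1 covariate and 0.001 to 0.032 with 1 array left out. Of 479 list medians under the alternatives (the interferon list had no value with the lowest 50% left out), 399 stayed within the spread between arrays, 80 did not and 24 had the opposite sign, 15 of them with the acta1 covariate.

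The acta1 ratio separates coMO from uninjected arrays, so as covariate it leaves little of the group difference to estimate. With it, 45 of 112 named genes took the opposite sign, with standard errors of 0.39 to 2.02, and the cause was not tested. Their log2 differences were then -0.06 for ptprsa, 0.87 for nfe2l2a, 0.43 for perp, 0 for gadd45ba, 0.57 for cebpb, 0.91 for cebpd, -0.23 for canx, 0.69 for gpx4a, 0.29 for nqo1, 1.17 for top2a, -0.55 for elavl3, -0.32 for atp1a3a, -0.84 for nrxn1a, -0.58 for gad2, 0.79 for apoeb, 0.6 for glulb and 0.71 for rpe65a. They were -0.33 for bfsp2, 1.08 for apoa4b.2, 0.9 for pck1, 0.72 for apoa4b.1, 2.21 for zgc:111983, 2.39 for lye, 1.78 for anxa1b, 0.44 for rhbg, 0.38 for klhl41b, 0.45 for cmlc1, -0.28 for hbbe3, 0.71 for dct, 0.26 for pmelb, 0.48 for tspan36, 0.96 for ctsla and 0.94 for apoc1. They were 0.71 for cldnb, -0.21 for eya1, 0.04 for cry3a, 0.36 for tecrb, 0.54 for sdhdb, 0.16 for psmc4, 0.53 for klf2a, 0.65 for mdm2, 0.14 for ccng1, 0.45 for isg15, 0.66 for mmp9 and 0.27 for atf3. The difference of opn1mw1 (-0.24) was -0.5 to 0.02 with 1 array left out, the highest without coMO replicate 1, and 0.41 with the GAPDH covariate. The 2-fold, 1.5-fold and unadjusted counts were chosen after seeing the data.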

Other observations

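Genes that need selenium were examined as a family after gpx4a and selenop had been seen among the lower genes, so the counts below are descriptions. Of 24 tested genes of selenoproteins and selenocysteine incorporation, 14 were lower on both coMO arrays, 2 were higher and 5 were at least 2-fold lower, with a median of -0.27. These counts include gpx4a and selenop, which prompted the choice. Over all probe sets, 26.1% were lower on both coMO arrays, 28.9% were higher and 1.94% were at least 2-fold lower. The methionine sulfoxide reductase msrb1a had 64.5 and 121 in coMO, against 295 and 308 in uninjected embryos (-1.46 ± 0.34), and the selenium carrier selenop, made in liver, had 1663 and 4392 in coMO, against 6573 and 6403 in uninjected embryos (-1.25 ± 0.42). The close relative gpx4b did not share the difference of gpx4a, with 2195 and 2696 in coMO against 2693 and 2388 in uninjected embryos (-0.06), and sephs1, a relative of the enzyme that makes the selenium donor, was higher on both coMO arrays (0.31). Without coMO replicate 1 the family median was -0.24, and with the acta1 ratio as covariate it was 0.12.

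The pyruvate dehydrogenase complex and its kinases were examined in the same way after pdk4. Of 7 tested genes, 6 were lower on both coMO arrays, 1 was higher (dldh, 0.36) and 3 were at least 2-fold lower, with a median of -0.73. These counts include pdk4, which prompted the choice and is among the 3. They stand beside 26.1% lower, 28.9% higher and 1.94% at least 2-fold lower over all probe sets. The kinase pdk2b had 135 and 175 in coMO, against 720 and 299 in uninjected embryos (-1.42 ± 0.39), and the acetyltransferase subunit dlat had 526 and 875 in coMO, against 1525 and 1425 in uninjected embryos (-1.08 ± 0.30). The median was also -0.73 without coMO replicate 1, and -0.06 with the acta1 ratio as covariate.

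Further genes in no list were lower on both coMO arrays and were chosen after their values were seen. For hsc70 the difference was -1.14 ± 0.34 by a brighter probe set. A dimmer hsc70 probe set had 99.5 and 408 in coMO, against 1375 and 1075 in uninjected embryos (-2.37 ± 0.48). The glycolytic regulator pfkfb3 had 12.3 and 71.6 in coMO, against 216 and 204 in uninjected embryos (-1.83 ± 0.38). A relative of translation elongation factor 2, eef2l2, had 593 and 1465 in coMO, against 3236 and 3057 in uninjected embryos (-1.72 ± 0.37).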
